A study of Mus musculus with 102 samples.

Results

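SMC3 is a core subunit of cohesin. The regions described here are those of a deposited table of H3K4-methylated regions in mouse embryonic stem (ES) cells at which SMC3 was listed with a log2 enrichment. SMC3 was listed at 24999 of the 67697 regions, or 36.9%. The study profiled histone marks and chromatin regulators by chromatin immunoprecipitation with sequencing (ChIP-seq), to ask which regulators share sites with monomethylated H3K4 (H3K4me1) and which depend on it. The regions come from 129/Ola ES cells with no stated mutation or treatment, grown on feeder cells and passaged without them before crosslinking, and SMC3 was measured there in 3 libraries with 1 antibody. In the same cells 16 other chromatin proteins were measured, SSRP1 in 1 library and the others in 2 or 3 each. A second comparison used R1 ES cells (strain 129SV) that were wild type or carried MLL3/4 made catalytically dead in both enzymes, with 2 libraries per mark and line; the labels do not say whether the mutant line is 1 clone. The table gives 1 value per factor and region, so the libraries could not be compared, no value has a replicate check, and the depth is unknown. Nothing in the labels says that numbered replicates were separate cultures. No other cohesin subunit and no CTCF were among the names used, so the SMC3 label could not be checked against a partner.

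Cohesin is a ring of SMC1, SMC3, a kleisin subunit and an accessory subunit that holds sister chromatids together and forms chromatin loops by extruding DNA. Loop extrusion halts at bound CTCF, which leaves cohesin at CTCF sites, and a further pool of cohesin is found with the coactivator complex Mediator at active enhancers and promoters of ES cells. H3K4me1 marks enhancers and H3K4me3 marks promoters, H3K27ac marks those that are active, and MLL3 and MLL4 are the main H3K4me1 methyltransferases at enhancers.

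SMC3 was listed most often where H3K4me3 was present. It was listed at 10413 of 41819 regions with H3K4me1 only (24.9%, 95% Wilson interval 24.5 to 25.3), at 10540 of 18425 regions with both marks (57.2%, 56.5 to 57.9) and at 4046 of 7453 regions with H3K4me3 only (54.3%, 53.2 to 55.4). These intervals, and all others given, cover counting error only and treat regions as independent, which neighbouring regions are not. The lowest share on any chromosome with both marks, 52.7% on chromosome 11, lay above the highest with H3K4me1 only, 28.2% on chromosome 15. Because the enhancer-type class is large, the SMC3 regions were nonetheless divided nearly evenly between it (41.7%) and the class with both marks (42.2%), and 16.2% had H3K4me3 only. Among the 17 proteins, SMC3 ranked 4th by share of H3K4me1-only regions, 9th with both marks and 6th with H3K4me3 only.

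Where SMC3 was listed, its enrichment was much alike in the 3 classes. The median log2 enrichment was 0.90 with H3K4me1 only (quartiles 0.78 and 1.08), 0.96 with both marks (0.82 and 1.14) and 0.94 with H3K4me3 only (0.81 and 1.14). Listed values begin at a log2 of 0.58, which is a 1.5-fold enrichment. A region without SMC3 is one at which SMC3 was not listed. The sources used here do not say whether it was left out for a value below that limit or for another reason. The highest values were 2.94, 3.21 and 3.11 in the 3 classes.

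SMC3 became more frequent with each further Mediator subunit. Mediator is represented by MED1 and MED12, a part of the middle module and of the kinase module, and by SUR2 (MED23), a tail subunit. With H3K4me1 only, SMC3 was listed at 18.4% of regions with none of these subunits, 32.4% with 1, 41.6% with 2 and 47.5% with all 3 (415 of 873). With both marks the shares were 37.6%, 51.5%, 61.7% and 75.9%, and with H3K4me3 only 34.6%, 50.1%, 66.1% and 80.1%. No neighbouring intervals overlapped within a class. No single subunit stood apart in this. At H3K4me1-only regions where just 1 subunit was listed, SMC3 was at 31.7% of those with MED1 (30.2 to 33.1), 31.5% with MED12 (29.9 to 33.1) and 33.9% with SUR2 (32.4 to 35.5). Mediator and H3K27ac each went with more SMC3 at H3K4me1-only regions when the other was held fixed. Without H3K27ac, SMC3 was at 15.0% of regions without and 29.9% with Mediator, and with H3K27ac at 24.2% and 39.1%.

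**Figure D1:**
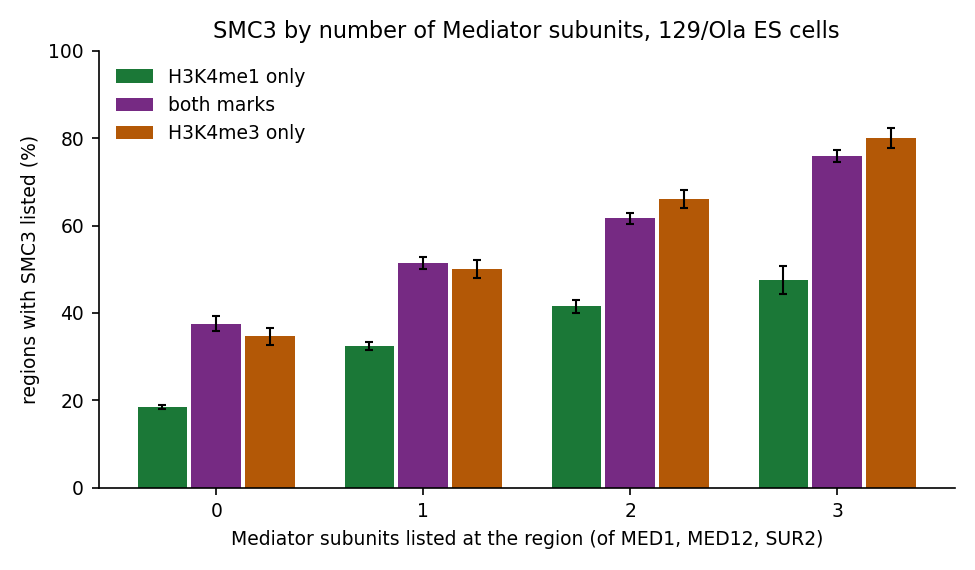
Share of regions with SMC3 listed (y axis, %) by the number of Mediator subunits listed at the region (x axis, 0 to 3) in 129/Ola ES cells, one bar per H3K4 class with its 95% Wilson interval. In every class the bars climb from 0 to 3 subunits, from 18.4% to 47.5% with H3K4me1 only and from 34.6% to 80.1% with H3K4me3 only.

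Mediator was not peculiar in accompanying SMC3, since nearly all of the profiled proteins did. In 46 of 48 pairs of a protein and an H3K4 class, the protein was listed at more of the regions with SMC3 than of those without it. The exceptions were both WSTF, a subunit of ISWI remodelling complexes, at regions with both marks (9.81% with SMC3 and 10.6% without) and with H3K4me3 only (12.98% and 14.2%). Neither exception held when SMC3 was counted at a log2 of 1 or more, where WSTF was 2.26 and 1.26 points more frequent with SMC3 and 48 of 48 pairs were higher. With H3K4me1 only WSTF was at 8.84% and 8.32%, and this difference had the same sign on 11 of 20 chromosomes. The other proteins' differences had the same sign on at least 19 of 20 chromosomes in each class.

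At H3K4me1-only regions the widest gap was that of SNF2H, the ATPase of ISWI complexes, at 38.1% of regions with SMC3 and 21.3% without. SRSF1, a splicing factor, followed with 38.7% and 22.7%, SAP18, a subunit of the SIN3 deacetylase complex, with 33.3% and 17.6%, and the AAA+ ATPase RUVBL2 with 28.7% and 12.97%. RUVBL2 was the protein whose own H3K4me1-only regions most often carried SMC3, at 42.3%. With both marks and with H3K4me3 only, the widest gap was that of RUVBL1, the partner ATPase of RUVBL2, at 66.8% against 44.2% and 73.0% against 46.8%. Both profiled subunits of the BAF remodelling complex were also more frequent with SMC3: BAF155 was at 61.2% of H3K4me3-only regions with SMC3 against 38.2%, and the ATPase BRG1 was at 29.2% against 17.8%. The SMC3 level was also higher with the partner than without it in 48 of 48 pairs, by medians. Across regions where both were listed, Spearman's rho between the log2 values of SMC3 and a partner ran from 0.09 to 0.43 (median 0.31), values that share regions and may share input libraries. Region width was not held fixed in these values. When the shares with and without SMC3 were standardised to width, 46 of 48 pairs were again higher with SMC3.

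**Figure D2:**
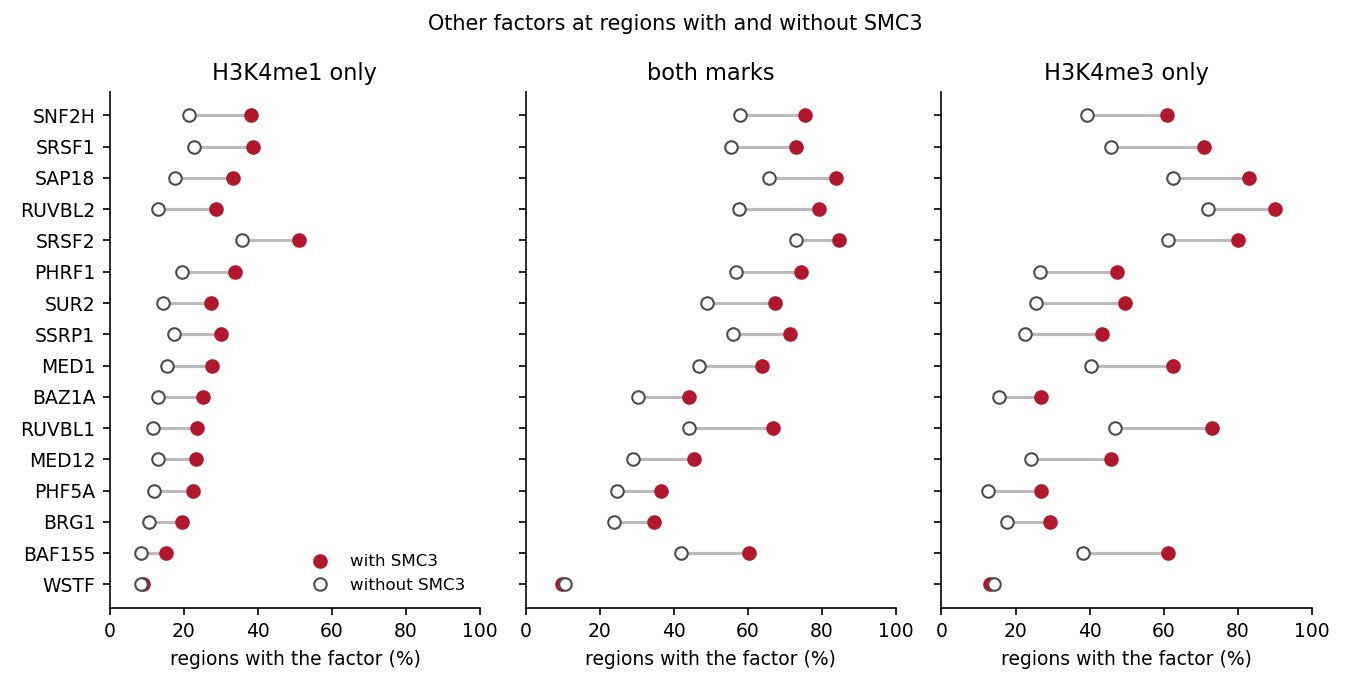
Share of regions with each of the 16 other proteins (x axis, %) among regions with SMC3 (filled points) and without SMC3 (open points), in the 3 H3K4 classes of 129/Ola ES cells. The filled point lies to the right for every protein except WSTF, whose filled and open points nearly coincide and whose order in the classes with H3K4me3 turns at a stricter limit for SMC3.

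The link between SMC3 and Mediator was weaker than that of most other proteins. The odds of any Mediator subunit were 2.45 times higher with SMC3 than without it at H3K4me1-only regions, 2.67 times with both marks and 3.15 times with H3K4me3 only. Among the 14 proteins outside Mediator, SMC3 ranked 2nd lowest by this odds ratio in all 3 classes, above WSTF (1.38, 1.16 and 1.25). By the difference in share it ranked 2nd, 5th and 4th lowest. The highest odds ratio was that of SNF2H at H3K4me1-only regions (4.23) and with both marks (4.96), and that of SSRP1, which belongs to the histone chaperone FACT, with H3K4me3 only (6.67). SSRP1 rests on 1 library. Mediator was at 53.9% of H3K4me1-only regions with SMC3 and at 32.4% without. This gap of 21.6 percentage points fell to 7.08 when regions with the same number of the 13 proteins outside SMC3 and Mediator were compared, an alternative chosen after the data were seen.

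H3K27ac was also listed more often with SMC3 in each class. With H3K4me1 only, 59.1% of regions with SMC3 (58.2 to 60.1) and 42.2% of those without it (41.7 to 42.8) carried H3K27ac. With both marks the shares were 90.2% and 85.7%, and with H3K4me3 only 94.2% and 84.7%. Where H3K27ac was listed, its median log2 with and without SMC3 was 1.24 and 1.17, 1.33 and 1.29, and 1.94 and 1.52 in the 3 classes. The gap of 16.9 points at H3K4me1-only regions fell to 5.82 at equal numbers of the 13 other proteins. In the deposited enhancer lists, SMC3 was at 37.1% of 12492 active and 29.6% of 19567 poised enhancers, with medians of 0.90 and 0.91. The poised list includes regions with H3K27ac listed. Each listed enhancer had to carry at least 1 of 13 names that include SMC3, so all 10413 H3K4me1-only SMC3 regions were in the lists and none of the 9760 regions in neither list had SMC3. Within the lists Mediator was at 53.9% of enhancers with SMC3 and at 46.9% of those without. All H3K4me1-only regions with Mediator were in the lists too, so the regions left out had neither SMC3 nor Mediator. This alone raised the Mediator share without SMC3 from the 32.4% of all H3K4me1-only regions, so the smaller gap follows from how the lists were made.

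SMC3 was seldom the only protein listed. It stood alone at 1105 regions, 4.42% of its regions, of which 1019 had H3K4me1 only. These lone SMC3 regions were weak and wide, with a median log2 of 0.82 and a median width of 1273 bp, and 32.8% of them had H3K27ac. At the other end, 4801 SMC3 regions carried at least 12 of the 16 other proteins, with a median SMC3 log2 of 1.07 and H3K27ac at 96.9%, and 53 carried all 16, with a median of 1.29. Of regions with no other protein listed, SMC3 was at 10.6% of those with H3K4me1 only, 19.8% where both marks were present and 15.1% with H3K4me3 only.

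Split by Mediator, 18175 SMC3 regions (72.7%) had at least 1 of the 3 subunits and 6824 (27.3%) had none. The Mediator-free set was mostly enhancer-type, with H3K4me1 only at 70.3% of it against 30.9% of the set with Mediator. This was not particular to SMC3. Of all regions of the table without Mediator, 26042 had H3K4me1 only, 3370 both marks and 2200 H3K4me3 only. Within the classes, Mediator was absent from 46.1% of SMC3 regions with H3K4me1 only, 12.01% where both marks were present and 18.8% with H3K4me3 only. It was present at 53.9%, 88.0% and 81.2% of SMC3 regions in the 3 classes, and at 32.4%, 73.3% and 57.8% of regions without SMC3. SMC3 itself was lower without Mediator, at a median log2 of 0.87 (quartiles 0.76 and 1.02) against 0.96 (0.82 and 1.15). The difference of 0.09 was above 0 on 20 of 20 chromosomes, from 0.07 to 0.13, yet small beside the spread of values within each set. By class the medians with and without Mediator were 0.94 and 0.87 with H3K4me1 only, 0.97 and 0.86 with both marks, and 0.97 and 0.84 with H3K4me3 only.

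**Figure D3:**
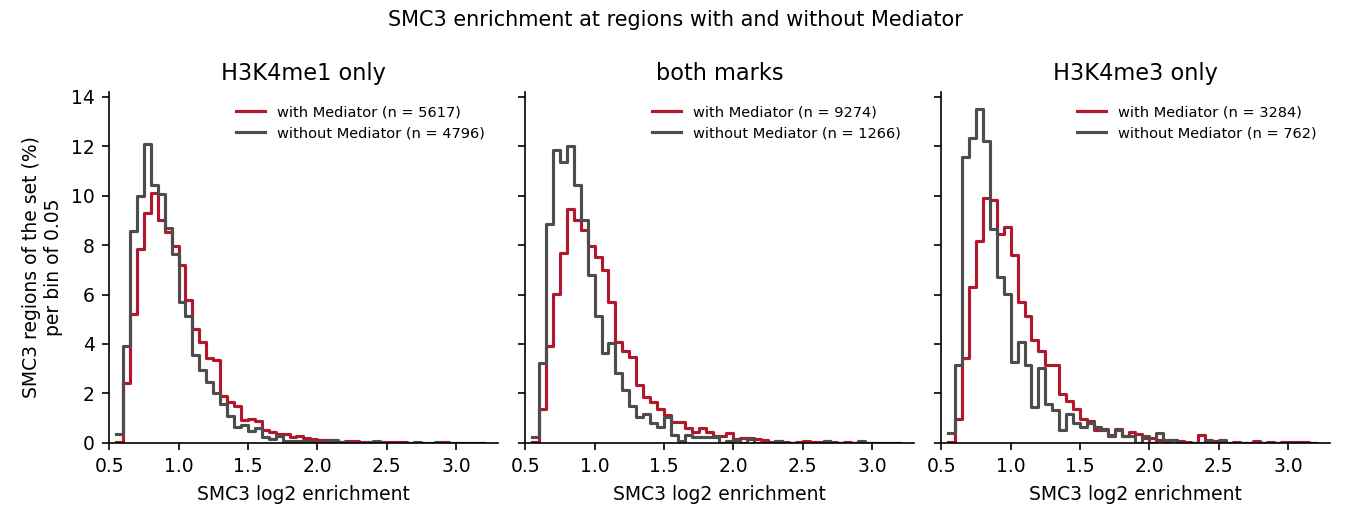
Distribution of SMC3 log2 enrichment (x axis) as the percentage of SMC3 regions per bin of 0.05 (y axis), for regions with Mediator (red) and without it (grey), in the 3 H3K4 classes. Both curves rise steeply at the lower limit of the table and overlap widely, with the grey curve shifted to the left in each class.

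SMC3 regions without Mediator carried fewer of the other proteins and less often H3K27ac. They had 3.14 ± 2.53 (SD over regions) of the 13 remaining proteins, against 7.11 ± 2.96 with Mediator, and H3K27ac was at 58.8% against 85.1%. Within H3K4me1-only regions H3K27ac was at 48.9% (47.4 to 50.3) against 67.9% (66.7 to 69.1), with both marks at 79.9% against 91.6%, and with H3K4me3 only at 86.4% against 96.1%. The H3K4me1-only difference in H3K27ac was above 0 on 19 of 20 chromosomes and -17.1 points on the X, which holds 5 such regions with and 14 without Mediator. Comparing regions with equal numbers of the 13 proteins left 5.32 of the overall 26.3 points.

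All 13 proteins were less frequent without Mediator in each class, by amounts that differed. With H3K4me1 only, SNF2H was at 23.6% without and 50.5% with Mediator, PHRF1, a PHD and RING finger protein, at 21.7% and 44.1%, and the splicing factor SRSF2 at 39.3% and 61.1%. With H3K4me3 only, SSRP1 was at 14.4% and 50.0%, the splicing factor subunit PHF5A at 9.71% and 30.8%, and RUVBL2 at 76.0% and 93.2%. WSTF differed least, at 7.59% and 9.92% with H3K4me1 only and 8.69% and 9.96% with both marks. SAP18 was at 58.8% of the Mediator-free H3K4me3-only regions, so it and RUVBL2 were common there while SSRP1 and PHF5A were scarce.

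Over all classes, regions with Mediator were wider, with a median of 1001 bp against 796 bp, but with H3K4me1 only the order was the opposite. There the SMC3 regions with Mediator had a median width of 403 bp and those without it 610 bp, narrower with Mediator on 19 of 20 chromosomes, chromosome 11 being the exception. Chromosome 11 also had the highest share of H3K4me1-only SMC3 regions with Mediator, 77.8%. The lowest such share was 26.3% on the X chromosome, where it rests on 19 regions. The chromosome 11 value may not be particular to Mediator or SMC3. SRSF2 was at 39.5% of all H3K4me1-only regions. Of R1 H3K4me1 peaks on such regions of chromosome 11, 1529 had SRSF2 and 675 did not. The Mediator share on chromosome 11 without SMC3 was not computed. With both marks the median widths were 1185 and 1111 bp, and with H3K4me3 only 1564 and 1557.5 bp. Compared with regions without SMC3, SMC3 regions were narrower with H3K4me1 only (469 against 546 bp) and wider with both marks (1176.5 against 952 bp) and with H3K4me3 only (1564 against 1429 bp).

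Mediator was more frequent where SMC3 was stronger, while H3K27ac changed little over the range of SMC3 unless regions of like width were compared. When the H3K4me1-only SMC3 regions were cut into 10 equal groups (deciles) by SMC3 enrichment, Mediator was at 41.4% of the lowest decile (38.4 to 44.4) and 67.1% of the highest (64.1 to 69.8). The mean number of the 13 other proteins went from 2.59 to 5.12. H3K27ac was at 59.8% (56.8 to 62.7) and 60.3% (57.3 to 63.3), and between 56.1% and 60.9% in every decile. With both marks Mediator went from 77.2% to 94.3% and H3K27ac from 90.7% to 87.9%. With H3K4me3 only Mediator went from 58.8% in the lowest decile to 89.6% in the 7th and 86.1% in the highest. H3K27ac in that class went from 91.4% to 96.5% in the 6th decile and 89.9% in the highest, and its median log2, where listed, from 1.60 in the lowest to 2.16 in the 9th and 1.94 in the highest decile.

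The strong SMC3 regions were also the narrow ones, so H3K27ac was also compared within widths. The median width of H3K4me1-only SMC3 regions fell from 1197.5 bp in the lowest to 330 bp in the highest decile, and rho between SMC3 and width was -0.30, -0.35 and -0.21 in the 3 classes. This was not particular to SMC3, since rho with width was negative for each of the 14 proteins outside Mediator in every class. With H3K4me1 only it ran from -0.47 for RUVBL1 to -0.23 for SNF2H. The SMC3 regions of each class were cut into 3 groups by width and each of these into 3 by SMC3. Among the narrowest with H3K4me1 only, H3K27ac was at 40.2% of the weakest and 52.3% of the strongest. Among those of middle width it was at 53.0% and 61.5%. Among the widest it was at 74.3% and 71.9%. With both marks H3K27ac was higher with stronger SMC3 in each width group, from 81.6% to 85.1% among the narrowest, 89.0% to 92.3% in the middle and 94.8% to 98.04% among the widest. With H3K4me3 only it went from 84.7% to 87.1%, 94.7% to 98.7% and 97.3% to 99.1%, with 90.2% at middle SMC3 among the narrowest. Mediator was more frequent with stronger SMC3 in each width group of each class. With H3K4me1 only its share went from 52.9% to 68.5%, from 49.6% to 63.0% and from 42.0% to 49.2%. With both marks it went from 80.2% to 91.7%, 83.1% to 94.7% and 79.3% to 95.1%. With H3K4me3 only it went from 72.7% to 83.1%, 74.4% to 92.7% and 63.8% to 92.9%. Among regions with H3K27ac listed, rho between the SMC3 and H3K27ac values was 0.01 at enhancer-type regions, 0.02 where both marks were present and 0.17 with H3K4me3 only.

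**Figure D4:**
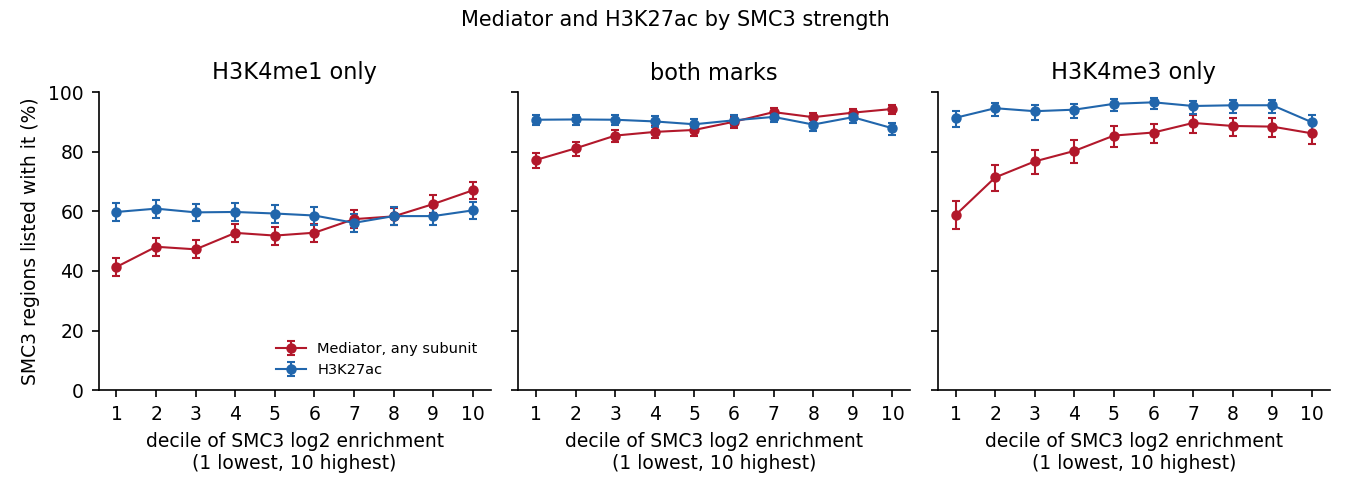
Share of SMC3 regions with Mediator (red) and with H3K27ac (blue), in % on the y axis, by decile of SMC3 log2 enrichment on the x axis (1 lowest, 10 highest) in the 3 H3K4 classes; bars are 95% Wilson intervals. With H3K4me1 only the red line climbs from 41.4% to 67.1% and the blue line stays between 56.1% and 60.9%.

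The strongest SMC3 regions carried many partners. The highest value was 3.21 at chr11:116180512-116180979 (mm9; 468 bp, both marks), where 14 of 16 other proteins were listed, among them MED1 at 1.87, SAP18 at 1.86 and SNF2H at 1.68, with H3K27ac at 1.72. Next came chr11:48621065-48621325 at 3.197 with 15 other proteins, led by SRSF2 at 3.16, and H3K27ac at 2.66. The next 3, at 3.11, 3.08 and 3.01, were H3K4me3-only regions at chr5:38698932-38699160, chr3:87572700-87573092 and chr7:122596981-122597314 with 10, 13 and 12 other proteins. H3K27ac was not listed at the regions on chromosomes 5 and 3. The highest H3K4me1-only value with Mediator was 2.94 at chr17:45985800-45986008, a region of the poised list with 13 other proteins, among them SSRP1 at 2.38. H3K27ac was listed there at 0.93, although the region is in the poised list. The region with the most proteins, and the highest SMC3 among the 53 with all 16 others, was chr2:70542644-70543088 with both marks, where SMC3 was 2.74.

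The 5 highest SMC3 values without Mediator lay between 2.53 and 2.95. Counts of other proteins at regions with Mediator include its subunits, so they are not to be set against those given here. At chr8:46154278-46154723 (both marks) SMC3 was 2.95 with 7 other proteins, of which SAP18 was highest at 1.69. At chr2:167430541-167431431, an active enhancer, SMC3 was 2.87, and the 11 other proteins lay between 0.67 for PHF5A and 1.28 for SAP18. At the poised enhancer chr1:137566909-137567561 SMC3 was 2.73 with 9 other proteins of at most 1.25. At chr9:118398721-118398911 (both marks) SMC3 was 2.68 with 4 others, and here WSTF was higher than SMC3, at 4.38. The last of these 5 was chrX:97048712-97049078 with H3K4me3 only, at 2.53 with 6 others. The lowest listed SMC3 values, both 0.59, were at poised enhancers with 1 other protein each: chr17:49126414-49126692 with PHF5A at 0.79 and chr11:74961645-74961929 with SRSF2 at 0.74.

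The median gap between neighbouring SMC3 regions was 23.6 kb, and that between all regions of the table, of which SMC3 regions are a part, 6.82 kb. Of the SMC3 gaps, 31.5% were under 10 kb. With H3K4me1 only, Mediator was at 58.0% of SMC3 regions whose near SMC3 neighbour of that class had it and at 47.0% of those whose neighbour lacked it. With both marks the shares were 90.7% and 83.7%, and with H3K4me3 only 77.1% (105 regions) and 75% (32 regions), both under the 81.2% of all SMC3 regions of that class.

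When MLL3/4 lost their catalytic activity in R1 cells, H3K4me1 fell less at enhancer-type regions with SMC3 than at those without it. Of the H3K4me1-only SMC3 regions, 69.3% overlapped an H3K4me1 peak of R1 cells. At the 7690 peaks on them, the median fold enrichment fell from 3.15 in wild-type to 2.32 in catalytic-dead cells, and the log2 ratio of the lines had a median of -0.50 (-0.52 to -0.48). At the 21966 peaks on H3K4me1-only regions without SMC3 the fold enrichment fell from 3.19 to 1.90, and the log2 ratio had a median of -0.79 (-0.81 to -0.78). At least 2-fold lower in catalytic-dead cells were 28.6% of peaks with SMC3 and 41.5% without, where 28.4% of all H3K4me1 peaks were. At least 2-fold higher were 2.60% and 2.14%, where 15.2% of all peaks were. There is 1 value per mark and line, so this compares those values, and no test between the lines was possible. The fall at SMC3 peaks depends on the processing: the median was -0.29 after centring on all peaks, -0.30 without the lowest 25% of peaks and -0.23 in the deposited layout of the values, which was changed here because values and positions appeared to be out of step.

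The difference in median log2 ratio between peaks with and without SMC3 was 0.29, the highest among the 17 proteins. PHF5A came next at 0.12 and RUVBL2 at 0.07, while MED1 and MED12 were at 0.01 each, SUR2 at -0.01 and BAF155 lowest at -0.10. For SMC3 the difference was above 0 on 19 of 20 chromosomes. The exception was the X chromosome, at -0.36 with 13 peaks with SMC3 and 39 without, and the lowest of the other 19 was 0.12. At proximal peaks the medians with and without SMC3 lay closer together than at distal peaks, at -0.14 (944 peaks) and -0.30 (2459 peaks). The difference was 0.30 at active enhancers, 0.35 at poised enhancers and 0.30 at distal peaks. It was 0.36 where none of the 13 other proteins was listed (920 and 7206 peaks), and at each number of these proteins from 0 to 12 the median with SMC3 was the higher, although at 12 there were 13 and 4 peaks. Among SMC3 peaks the median was -0.53 with Mediator (-0.56 to -0.50) and -0.46 without (-0.49 to -0.44), so the fall was slightly smaller at Mediator-free SMC3 regions.

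The fall in H3K4me1 was smaller where SMC3 was stronger. By quintiles of SMC3 enrichment the median log2 ratio was -0.63, -0.56, -0.53, -0.45 and -0.31, and 31.1% of peaks in the lowest and 22.0% in the highest quintile were at least 2-fold lower, beside 28.4% of all H3K4me1 peaks. At least 2-fold higher were 1.04% in the lowest and 5.07% in the highest quintile, beside 15.2% of all. The wild-type fold enrichment moved with this, from 3.25 in the lowest to 3.02 in the highest quintile, and its part in the trend was not tested. Between peaks with and without SMC3 the difference was 0.26 when peaks of like wild-type fold enrichment were compared and 0.27 at like peak width. It was 0.20 with a pseudocount of 1 and 0.16 without the 25% of peaks lowest by the mean of both lines. In the deposited layout of the values, in which values and positions appear to be out of step, it was 0.04. On chromosomes 1 and X, where both layouts coincide or nearly so, it was 0.41. Of the 20 chromosomes, chromosome 1 had the highest difference, 0.43, and the X the lowest, -0.36, so 0.41 may not stand for the rest.

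**Figure D5:**
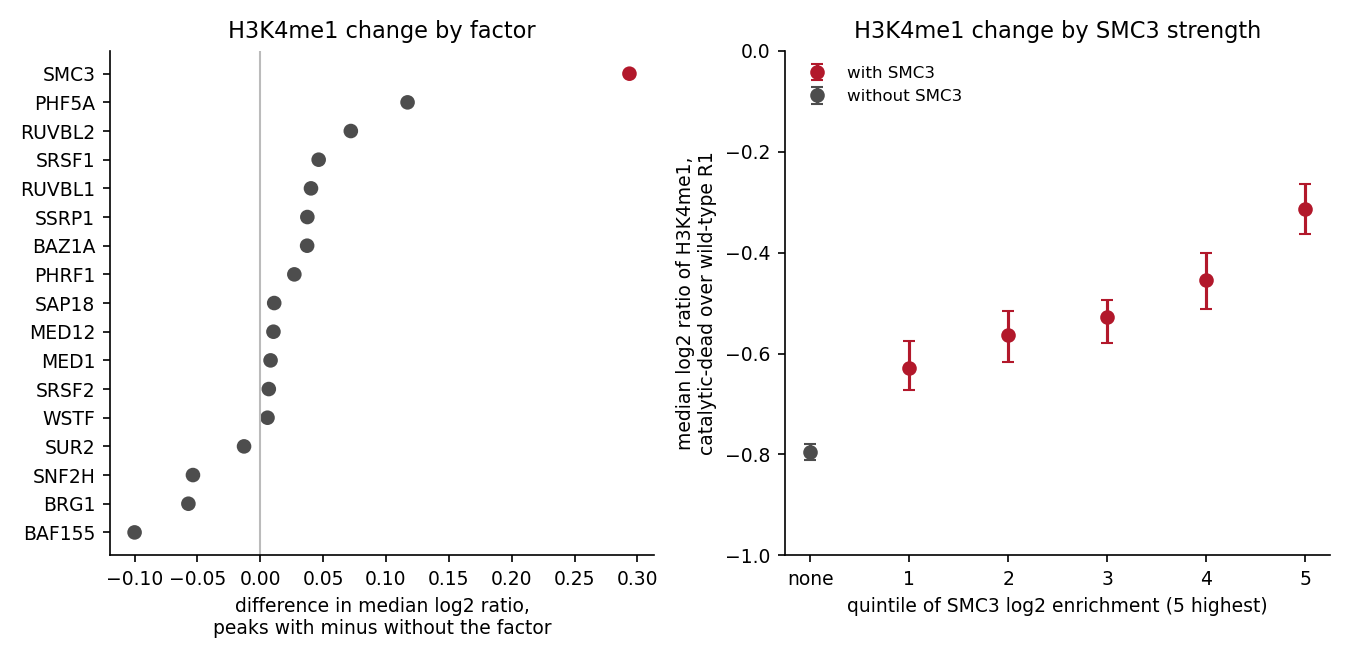
Left, difference in median H3K4me1 log2 ratio (catalytic-dead over wild-type R1 cells) between peaks on H3K4me1-only regions with and without each of 17 proteins. Right, median log2 ratio at peaks without SMC3 and in quintiles of SMC3 log2 enrichment, with 95% order-statistic intervals; SMC3 lies at 0.29 on the left, and on the right the medians go from -0.79 without SMC3 to -0.31 in the highest quintile.

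Dimethylated H3K4 followed the same order at enhancer-type regions. At H3K4me2 peaks on H3K4me1-only regions the median log2 ratio was -0.62 with SMC3 (4789 peaks) and -0.94 without (13152 peaks). At least 2-fold lower were 33.4% and 47.7%, where 23% of all H3K4me2 peaks were, and at least 2-fold higher 0.50% and 0.32%, where 1.91% of all peaks were. The difference of 0.32 was again the highest of the 17 proteins, but PHF5A at 0.25 and BAZ1A, a subunit of ISWI complexes, at 0.21 lay closer. H3K4me3 peaks on these regions differed little, with median log2 ratios of -0.0444 with and -0.00113 without SMC3; 6.43% and 7.77% were at least 2-fold lower (4.48% of all H3K4me3 peaks) and 5.73% and 6.68% at least 2-fold higher (3.15% of all).

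SMC3 regions with H3K4me3, with or without H3K4me1 beside it, had more H3K4me1 in catalytic-dead cells. They were not all at promoters: 46.7% of the H3K4me1 peaks on SMC3 regions with both marks were distal, and 24.1% with H3K4me3 only. With both marks the median log2 ratio was 0.66 with SMC3 and 0.46 without, and 24.4% and 18.1% of peaks were at least 2-fold higher, where 15.2% of all H3K4me1 peaks were. At least 2-fold lower were 3.86% and 7.20%, where 28.4% of all were. With H3K4me3 only it was 1.04 and 1.08, and 54.0% and 59.7% were at least 2-fold higher, so SMC3 regions lay slightly lower there. SMC3 had no library in R1 cells, so whether SMC3 itself changed in catalytic-dead cells could not be asked.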

How the data were processed

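The authors deposited region tables of 129/Ola ES cells that give, from the values, a log2 enrichment per factor and region, and peak tables of R1 cells that give, per the file headers, a fold enrichment (ratio, FE) in wild-type and catalytic-dead cells. Per the submitters' processing notes the build was mm9, with Bowtie, Picard and MACS2 for 129/Ola and MACS2 2.1.0.20150731, Picard 2.11.0, BWA 0.7.13-r1126 and deepTools 2.5.1 and 2.5.3 for R1. Not given in the sources used here are their roles, the pooling of replicates and what the enrichment is relative to. Of 31 names in the region table, 11 matched no 129/Ola library and were not used. H3K4me1 and H3K4me3 were used as presence.

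The values of the peak tables appear to be out of step with their positions, which no source used here states, and were put in chromosome number order. On chromosomes 2 to 19 the mean rho of width with H3K4me1 fold was 0.25 in that order and 0.00253 as deposited, against 0.22 on chromosome 1. Log2 ratios were computed without a pseudocount, and peaks were matched to regions at 1 bp or more. At least 2-fold is a rule of size; checked against the deposited classes of change, it had 0 exceptions.

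Shares have Wilson intervals and medians order-statistic intervals, both 95%. No test was run, since there is 1 value per factor. Standardised differences used 5 classes, except for the number of other proteins. Functions were tested on simulated data. Python 3.11.15, pandas 2.3.3, numpy 2.4.6, scipy 1.17.1 and matplotlib 3.10.9 were used.

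Named regions are the 5 with the highest SMC3 with and without Mediator, the highest of each class, the one with the most proteins and the 2 with the lowest SMC3. The members, lists and rules were chosen with earlier results of these data known. A CTCF motif search, genes at the regions and sequences were left out, because no genome or annotation of mm9 was used here. Alternatives changed the limit for SMC3 and H3K27ac, the definition of Mediator, the width, spacing and class of regions, and the layout, centring, pseudocount, overlap and filter of the peaks.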

Additional observations from a re-analysis of the deposited data

How the results depend on the processing

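There is 1 value per factor and the libraries are not separate in the tables, so no library could be left out. No paired analysis was possible because the replicates of the groups are not separate in the deposited values. The planned CTCF motif alternatives were not run, for want of a genome of the build. The stricter limit for SMC3 turned both WSTF differences, to 2.26 points with both marks and 1.26 with H3K4me3 only, so that 48 and not 46 of 48 pairs were higher with SMC3. Among the single differences, 1 turned: the width of SMC3 regions with minus without Mediator was -207 bp with H3K4me1 only, against 205 bp overall. For that class alone the SMC3 difference was 0.0639, the H3K27ac difference 19.0 points and the difference in other proteins 2.29. The cause of the other changes was not tested, beyond what an alternative's own construction sets.

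With SMC3 counted at a log2 of 1 or more, its share was 8.56% with H3K4me1 only, 24.9% where both marks were present and 22.1% with H3K4me3 only. At H3K4me1-only regions the H3K27ac gap was then 13.2 and the Mediator gap 26.6 points. Mediator was at 80.8% of these SMC3 regions, and with minus without Mediator the SMC3 difference was 0.0293, that of H3K27ac 30.7 points, of width 301.5 bp and of other proteins 4.16. The active minus poised gap was 2.57 points. With 1 region kept per 10 kb run, the shares were 22.9%, 58.3% and 52.4%, the H3K27ac gap 15.3, the Mediator share 75.4%, the H3K27ac difference by Mediator 28.9, the width difference 297 bp and the active minus poised gap 6.40. Standardised to width, the shares with both marks and with H3K4me3 only were 56.2% and 51.3%, and the H3K27ac difference by Mediator 24.7. With Mediator defined as at least 2 subunits, the Mediator gap was 11.2 points and the Mediator share 43.1%, and the differences by Mediator were 0.11 in SMC3, 22.9 points in H3K27ac and 377 bp in width. With H3K27ac at a log2 of 1 or more, the gap was 15.2 with against without SMC3 and 29.3 by Mediator.

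Chosen after seeing the data, standardisation to the number of 13 other proteins gave an H3K27ac gap of 5.82, a Mediator gap of 7.08, an H3K27ac difference by Mediator of 5.32 and an active minus poised gap of 3.21. Within the enhancer lists the H3K27ac gap was 8.05 and the Mediator gap 7.01. The lists leave out only regions without SMC3, and none of these had Mediator, so the smaller Mediator gap is set by construction.

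The H3K4me1 log2 ratio at SMC3 peaks was -0.23 in the deposited layout, -0.29 after centring on the median of all peaks, -0.37 with a pseudocount of 1 and -0.30 without the lowest 25% of peaks. The alternatives for the difference between peaks with and without SMC3 were all chosen after seeing the data. This difference was 0.0428 in the deposited layout, 0.20 with a pseudocount of 1, 0.16 without the lowest 25% and 0.41 on chromosomes 1 and X. It was 0.35 at poised enhancers, 0.33 at equal numbers of other proteins and 0.26 at like wild-type fold enrichment.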
